A study of Homo sapiens with 12 samples.

Results

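The interferon-stimulated genes described here are IRF1, IFIT1, IFIT2, IFIT3, ISG15, IFI6, MX1, OAS1 and CXCL10. They were taken by gene symbol from the deposited count tables, where 9 of the 46350 named genes carried one of these symbols. RNA sequencing had been carried out on 12 libraries of ovarian cancer cells in 4 groups of 3. SKOV3 is a line of human epithelial ovarian cancer that the study counts as chemosensitive. SKOV3/DDP is a cisplatin-resistant line that the study describes as derived from SKOV3. Each line was sequenced without treatment (SKOV3, SKOV3/DDP) and after treatment with paeonol (SKOV3_PAE, SKOV3/DDP_PAE), a small phenolic compound known from peony root and abbreviated PAE. Its dose and the length of the treatment are not given in the labels, and neither is what the untreated cells received. The 3 libraries of a group are called triplicates, both biological and experimental, without saying which libraries came from separate cultures. The p-values below therefore measure the spread between these libraries, which may be technical. All cells of a group belong to 1 line, so a difference between SKOV3 and SKOV3/DDP is a difference between 2 lines and not between sensitive and resistant tumours in general.

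Interferons are secreted proteins by which a cell warns itself and its neighbours of infection or of nucleic acid in the wrong compartment. Type I interferons bind the receptor chains IFNAR1 and IFNAR2, type III interferons bind IFNLR1 and IL10RB, and both activate the kinases JAK1 and TYK2, which phosphorylate transcription factors of the STAT family such as STAT2. Together with IRF9 these form a complex that binds the interferon-stimulated response element, while interferon gamma acts mainly through the gamma-activated site. In tumour cells the same genes can be expressed without infection, through cytosolic DNA or RNA sensors.

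Elements through which interferons act were sought in the sequences upstream of these genes. RefSeq promoters of GRCh38.p14, spanning 250 bases before to 50 bases after an annotated start, were at hand for 8 of the 9 genes (all but IFIT2). They were searched on both strands for GAAANNGAAA, the core of the interferon-stimulated response element, and for TTCNNNGAA, a gamma-activated site. The first motif was present in 6 of the 8 genes, against 1255 of 35116 promoters in the same table (3.57%). The second motif was present in 3 of the 8, against 2689 of those promoters (7.66%). A gene was counted if any of its annotated starts matched, while the comparison counts single promoters, so the units are not alike. The stretches below run 5′ to 3′ on the strand of the gene with 10 flanking bases on each side. Capitals mark every match to the response element core within the printed stretch. Another annotated start of IFIT3, with 2 further matches, and the matches of MX1 are not printed. On the other strand the core reads TTTCNNTTTC, and in ISG15 its 2 matches overlap.
ISG15 (chr1:1013374-1013409, plus strand): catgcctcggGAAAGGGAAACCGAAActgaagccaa
IFI6 (chr1:27672266-27672358, minus strand): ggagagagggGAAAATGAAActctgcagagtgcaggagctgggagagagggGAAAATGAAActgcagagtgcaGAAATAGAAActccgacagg
IFIT1 (chr10:89392497-89392539, plus strand): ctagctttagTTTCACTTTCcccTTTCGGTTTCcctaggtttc
IFIT3 (chr10:89327831-89327894, plus strand): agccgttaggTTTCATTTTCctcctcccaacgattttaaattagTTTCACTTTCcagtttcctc
CXCL10 (chr4:76023699-76023728, minus strand): tcatgttttgGAAAGTGAAAcctaattcac

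IRF1 and OAS1 held no response element core within their windows. The gamma-activated site was found in OAS1, MX1 and IRF1, with 1 match each, and those of OAS1 and MX1 are not printed. For IRF1 the capitals mark it in the following line.
IRF1 (chr5:132490879-132490907, minus strand): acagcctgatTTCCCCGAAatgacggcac

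MX1 has 3 annotated starts in the table and held the core at 2 of them. Among other interferon-stimulated genes listed for comparison, 26 of 44 with a promoter held the core, as did 8 of 10 targets of interferon gamma, 5 of 18 interferon genes, 2 of 8 sensors and 1 of 7 inhibitors of the pathway. It was in 0 of 5 receptor chains, 0 of 5 genes of the JAK-STAT core and 0 of 3 other interferon regulatory factors. These matches describe letters within the windows and do not locate a bound site.

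Depth was even, with 14610008 to 18263479 counts per library. Levels are given as CPM, counts scaled to a common library total, after correction of that total by the TMM factor, which aligns the bulk of the genes between libraries. In the untreated SKOV3 libraries the deviation of a gene from its mean over all libraries rose with its GC content (Spearman 0.676 to 0.683 across genes), whereas it fell with GC content in the other 9 (−0.541 to −0.329). That mean includes the untreated SKOV3 libraries, so the opposite sign in the other 9 is not a separate observation. Genes are not independent replicates, and the coefficients are descriptions. All 3 libraries of that group share the trend, so in any comparison with untreated SKOV3 the group and the trend cannot be told apart. Fold changes and counts of calls from such comparisons are therefore given with the value obtained after each library had been freed of its smooth dependence on GC content and gene length (below, with the GC trend removed), over the 15090 genes with a known GC content (88.1% of those tested). Epithelial markers were detected in both lines (KRT8 at a mean of 3311 CPM in SKOV3 and 5279 CPM in SKOV3/DDP), but at unlike levels. All 6 were called between the untreated lines, with SKOV3 the lower line each time. The fold difference was 1.59 for KRT8, 2.80 for KRT18, 9.54 for CLDN4, 58.0 for CDH1, 176 for KRT19 and 227 for EPCAM. Values of these differences with the GC trend removed are not given. PAX8, which marks tumours of tubal and ovarian origin, was at 29.7 CPM in SKOV3 and 4.13 CPM in SKOV3/DDP. WT1 and SOX17, often found in serous ovarian tumours, were at or near 0. The 8 leukocyte markers summed to 64.5 to 73.4 CPM in SKOV3, 23.6 to 41.1 in SKOV3_PAE, 2.88 to 4.29 in SKOV3/DDP and 2.53 to 2.94 in SKOV3/DDP_PAE, mainly from CD14, while PTPRC, which encodes the leukocyte antigen CD45, had at most 2 counts in a group. Mitochondrial genes took 1.29% to 2.44% of counts in SKOV3 and SKOV3_PAE and 3.93% to 11.2% in both SKOV3/DDP groups. The part of these values in the results was not tested. In bulk RNA, fewer expressing cells and less RNA per cell cannot be told apart.

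After PAE the 9 genes were called in both directions in SKOV3 and mostly as lower in SKOV3/DDP. In SKOV3, 4 of the 9 were higher after PAE (IFIT1, IFIT2, IFIT3 and CXCL10) and 4 were lower (IRF1, ISG15, IFI6 and OAS1), with a median log2 fold change of −0.38 against 0.48 over all genes. Against these counts, 75.3% of the 17133 genes tested were called at an adjusted p under 0.05, 42.6% as higher and 32.7% as lower, beside 44.4% of the 9 in each direction. In SKOV3/DDP only IRF1 was called higher, and 6 were called lower (IFIT1, IFIT3, ISG15, MX1, OAS1 and IFI6), with a median log2 fold change of −1.25 against 0 over all genes. There the background was 26.4%, with 11.8% of genes higher and 14.7% lower. Calls come from 1 quasi-likelihood fit in edgeR with Benjamini-Hochberg adjustment over all tested genes. An exact permutation test (2-sided) of 3 libraries against 3 cannot give a p below 0.1 and is not used for calls. Scaling by library size in place of TMM gave a median over all genes of 1.36 in SKOV3, against 0.48 with TMM, and of 0.16 in SKOV3/DDP, against 0. The calls over all genes then shifted from 7292 higher and 5603 lower to 9058 and 3834 in SKOV3, and from 2014 and 2512 to 2889 and 1913 in SKOV3/DDP. The plot of the 9 genes by library shows the levels described next.

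**Figure D1:**
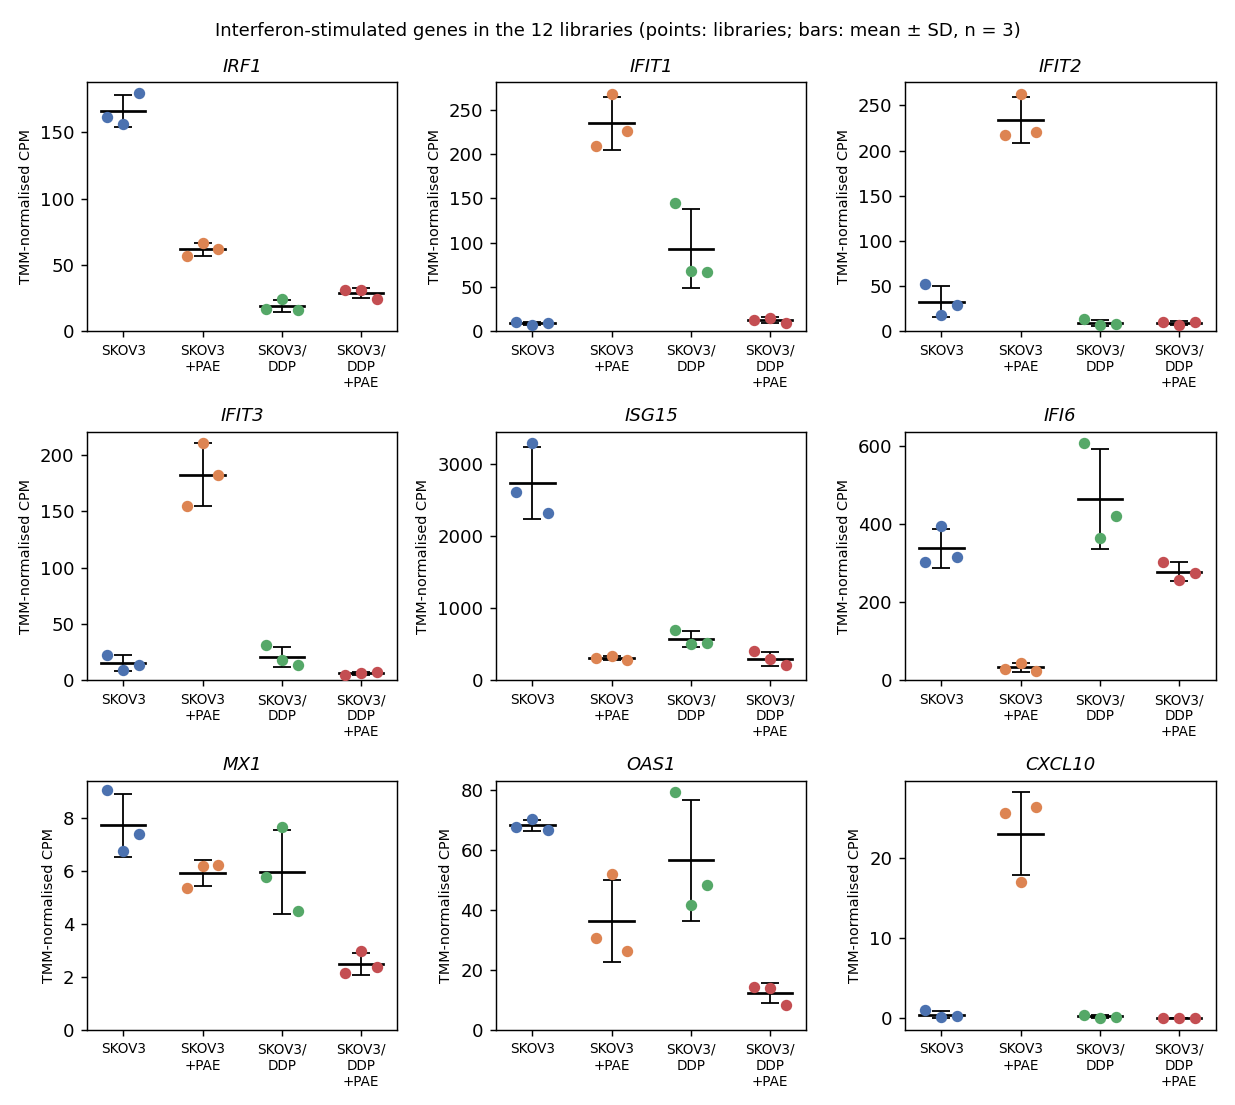
TMM-normalised CPM (linear axis) of the 9 interferon-stimulated genes in the 4 groups, where each point is a library and the bars give the mean ± SD of 3 libraries. IFIT1, IFIT2, IFIT3 and CXCL10 are highest in SKOV3_PAE, IRF1 and ISG15 are highest in untreated SKOV3, and IFI6 is lowest in SKOV3_PAE.

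IRF1 (gene ID 3659, chromosome 5, 132481609 to 132490789, minus strand, GRCh38) encodes a transcription factor that is itself induced by interferon and that binds the response element. It measured 162, 157 and 179.5 CPM in the SKOV3 libraries and 56.6, 66.8 and 61.7 CPM in SKOV3_PAE. The SKOV3/DDP libraries had 16.6, 24.4 and 15.7 CPM and the SKOV3/DDP_PAE libraries 31.0, 31.2 and 24.2 CPM. All SKOV3 libraries lay above all SKOV3/DDP libraries, treated or not, while the treated and untreated SKOV3/DDP libraries overlapped. After PAE IRF1 fell by 1.43 ± 0.21 (SE) on the log2 scale in SKOV3 (adjusted p = 1.73e-05), and by 1.01 with the GC trend removed. In SKOV3/DDP it rose by 0.61 ± 0.21 (adjusted p = 0.0443), a call that was lost with the replicate block (adjusted p = 0.0561), without SKOV3/DDP replicate 1 (0.145), without SKOV3/DDP replicate 3 (0.162), without either of replicates 1 and 2 of SKOV3/DDP_PAE (0.108 and 0.106) and without SKOV3 replicate 3 (0.0624).

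The IFIT genes lie in a cluster on chromosome 10 (IFIT1, gene ID 3434, 89392623 to 89406487; IFIT2, 3433, 89302046 to 89309271; IFIT3, 3437, 89327997 to 89340968; all on the plus strand). They encode proteins with tetratricopeptide repeats, of which IFIT1 binds RNA with an incompletely capped 5′ end and IFIT2 and IFIT3 bind it as partners. IFIT1 measured 9.93, 7.07 and 9.41 CPM in SKOV3 and 209.8, 268 and 226 CPM in SKOV3_PAE. In SKOV3/DDP it was at 145, 67.9 and 67.2 CPM, and after PAE at 13.1, 15.3 and 9.41 CPM. Every SKOV3_PAE library was above every other library, and the SKOV3/DDP_PAE libraries overlapped those of untreated SKOV3. The fold change was 26.7 in SKOV3 (log2 4.74 ± 0.34, adjusted p = 1.91e-08) and 5.01 with the GC trend removed. In SKOV3/DDP IFIT1 fell by 2.88 ± 0.31 on the log2 scale (adjusted p = 6.25e-05), with −2.95 when the trend was removed and −2.38 without SKOV3/DDP replicate 1, its highest library in that group.

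IFIT3, like IFIT1, was called higher after PAE in SKOV3 and lower in SKOV3/DDP. It measured 22.7, 8.86 and 14.0 CPM in SKOV3, 155, 211 and 183 in SKOV3_PAE, 31.3, 18.0 and 13.8 in SKOV3/DDP and 5.15, 6.53 and 7.76 in SKOV3/DDP_PAE. The untreated lines overlapped, SKOV3_PAE stood above all others and SKOV3/DDP_PAE below all others. The log2 fold change was 3.59 ± 0.36 in SKOV3 (adjusted p = 3.37e-07), or 2.09 with the GC trend removed, and −1.70 ± 0.35 in SKOV3/DDP (adjusted p = 0.00299), or −1.73 with the trend removed. A long noncoding RNA, LOC101926887, overlaps IFIT3 on the opposite strand at a mean of 0.448 CPM over the libraries, and reads of the 2 genes cannot be told apart without the strand.

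IFIT2 differed from its neighbours in SKOV3/DDP. It measured 51.9, 17.7 and 28.9 CPM in SKOV3 and 218, 263 and 220.2 CPM in SKOV3_PAE, whereas the SKOV3/DDP libraries had 13.0, 6.57 and 7.59 CPM and the SKOV3/DDP_PAE libraries 9.81, 6.63 and 10.6 CPM. The last 2 groups overlapped throughout. The log2 fold change was 2.83 ± 0.36 in SKOV3 (adjusted p = 3.69e-06) and 0.78 with the GC trend removed (adjusted p = 0.0394), close to the median of all genes at its GC content of 42.8%. In SKOV3/DDP it was −0.01 ± 0.35 (adjusted p = 1), and its sign changed between alternatives, with 0.14 under scaling by library size. The paralogs of the IFIT cluster share stretches of sequence, and how reads shared between them were counted is not given in the sources used here.

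ISG15 encodes a ubiquitin-like protein that is conjugated to other proteins, and it was the most abundant of the 9 genes in every group per kilobase of gene length. On that scale its mean level ran from 473.8 CPM per kb in SKOV3/DDP_PAE to 4294 in SKOV3. It lies on chromosome 1 (gene ID 9636, 1013497 to 1014540, plus strand) and has the highest GC content of the 9 genes (63.4%). In CPM it measured 2603, 3289 and 2314 in SKOV3, 310.4, 343 and 283 in SKOV3_PAE, 698, 502 and 516 in SKOV3/DDP and 405, 289.7 and 210.4 in SKOV3/DDP_PAE. Untreated SKOV3 was above all other libraries by a wide margin, and the 2 treated groups overlapped. In SKOV3 it fell by 3.13 ± 0.27 on the log2 scale after PAE (adjusted p = 6.65e-08). With the GC trend removed the sign turned to a rise of 0.72 ± 0.20 (adjusted p = 0.00849). The direction of ISG15 in SKOV3 thus depends on removal of the joint trend with GC content and gene length, whose parts were not separated. In SKOV3/DDP it fell by 0.92 ± 0.25 (adjusted p = 0.0144), and by 0.60 with the trend removed. That call was lost without SKOV3/DDP replicate 1 (adjusted p = 0.0895) and without SKOV3/DDP_PAE replicate 2 (0.0582) or replicate 3 (0.0632).

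IFI6, a small membrane protein of the mitochondria and the endoplasmic reticulum (gene ID 2537, chromosome 1, 27666061 to 27672229, minus strand), was the second most abundant gene per kilobase in SKOV3 (353 CPM per kb) and in SKOV3/DDP (484). It measured 303, 395 and 315 CPM in SKOV3, 28.99, 45.1 and 25.2 in SKOV3_PAE, 607, 364 and 419 in SKOV3/DDP and 304, 256 and 275 in SKOV3/DDP_PAE. Only SKOV3_PAE stood apart from the other groups. The log2 fold change was −3.35 ± 0.27 in SKOV3 (adjusted p = 4.52e-08), and −0.81 ± 0.23 with the GC trend removed (adjusted p = 0.00908). In SKOV3/DDP it was −0.74 ± 0.25 (adjusted p = 0.0419), a call lost with the trend removed (adjusted p = 0.0964), with scaling by library size (0.115) and with the replicate block (0.0576). It was also lost without SKOV3/DDP replicate 1 (log2 −0.46, adjusted p = 0.254), SKOV3/DDP replicate 3 (0.0793), SKOV3 replicate 3 (0.0612), SKOV3_PAE replicate 1 (0.0573) and each of the SKOV3/DDP_PAE replicates (0.0888, 0.141 and 0.107).

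MX1 and OAS1 encode antiviral effectors, a dynamin-like GTPase and an enzyme that makes the 2′-5′ oligoadenylates that activate RNase L. MX1 (gene ID 4599, chromosome 21, 41420329 to 41459214, plus strand) was low throughout, with 9.05, 6.73 and 7.37 CPM in SKOV3 and 5.35, 6.20 and 6.21 CPM in SKOV3_PAE. In SKOV3/DDP it measured 5.77, 7.64 and 4.47 CPM, and after PAE 2.16, 2.96 and 2.37 CPM, below every other library. The change in SKOV3 did not pass the threshold (log2 −0.38 ± 0.30, adjusted p = 0.254, −0.14 with the GC trend removed and 0.50 with scaling by library size). With DESeq2 it was called lower (log2 −0.63, adjusted p = 0.0404). In SKOV3/DDP MX1 fell by 1.25 ± 0.30 (adjusted p = 0.0083).

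OAS1 (gene ID 4938, chromosome 12, 112906956 to 112933219, plus strand) measured 67.8, 70.3 and 66.8 CPM in SKOV3, 30.7, 52.1 and 26.4 in SKOV3_PAE, 79.5, 41.8 and 48.4 in SKOV3/DDP and 14.3, 14.0 and 8.25 in SKOV3/DDP_PAE. The SKOV3/DDP_PAE libraries lay below all others. OAS1 fell by 0.91 ± 0.30 on the log2 scale in SKOV3 (adjusted p = 0.0131) and by 1.74 with the GC trend removed. The call in SKOV3 was lost with scaling by library size (log2 −0.02, adjusted p = 0.966) and without SKOV3_PAE replicate 1 (0.0562) or replicate 3 (0.0672). In SKOV3/DDP OAS1 fell by 2.21 ± 0.31 (adjusted p = 0.000301), by 2.19 with the trend removed and by 1.85 without SKOV3/DDP replicate 1.

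CXCL10, a chemokine that attracts T cells, was nearly silent except in SKOV3_PAE (gene ID 3627, chromosome 4, 76021118 to 76023497, minus strand). It had 11, 1 and 3 counts in the SKOV3 libraries and 440, 335 and 501 counts in SKOV3_PAE, or 25.6, 17.0 and 26.4 CPM. The SKOV3/DDP libraries had 7, 1 and 3 counts and the SKOV3/DDP_PAE libraries 1, 1 and 0. The ratio of group totals, corrected for library size, was 53.0 in SKOV3 (95% counting interval 32.0 to 94.9), and the fit gave a log2 fold change of 5.70 ± 0.61 (adjusted p = 5.76e-07), or 3.77 with the GC trend removed. In SKOV3/DDP the counts were 6.65-fold lower (1.45 to 61.7) and the fitted log2 change of −2.48 ± 1.04 did not pass the threshold (adjusted p = 0.0916). These intervals cover counting error only, and 3 counts over the SKOV3/DDP_PAE group correspond to 0.0501 CPM.

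**Figure D2:**
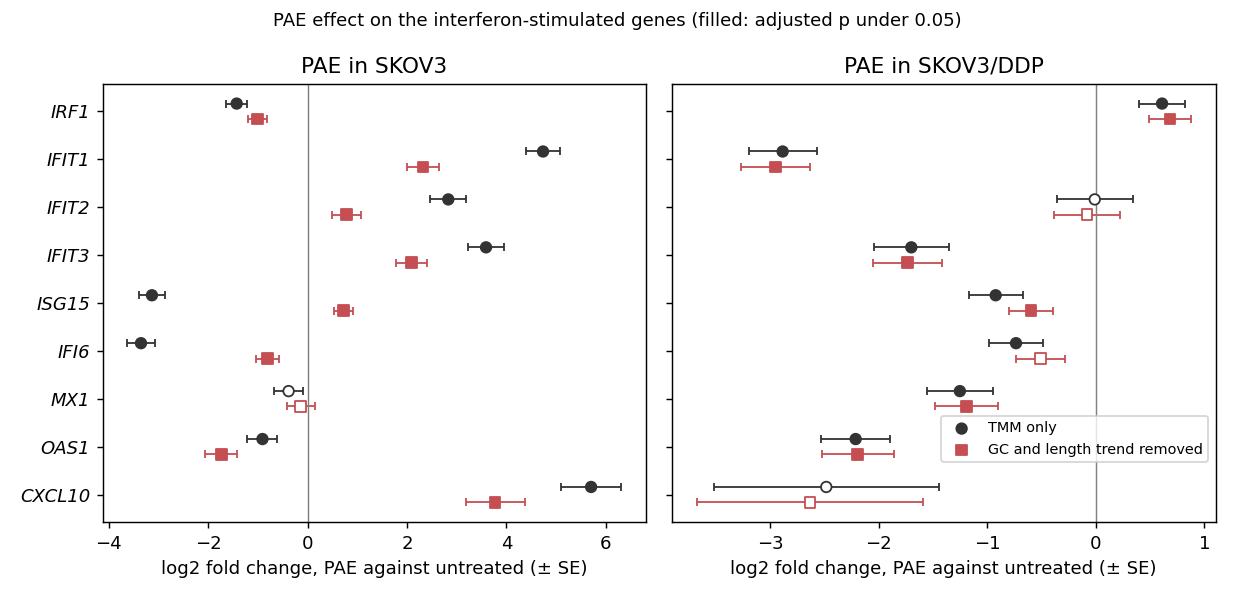
Log2 fold change (± SE) of each gene after PAE in SKOV3 and in SKOV3/DDP, from TMM-normalised counts (circles) and after removal of the GC and length trend (squares), with filled symbols for an adjusted p under 0.05. In SKOV3 the squares lie closer to 0 than the circles except for OAS1, and ISG15 changes sign from −3.13 to 0.72, while in SKOV3/DDP both estimates lie close together.

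The 9 genes span GC contents from 37.5% (CXCL10) to 63.4% (ISG15), and the median of all tested genes was 49.0%. In SKOV3, 92.4% of the called genes below that median were higher after PAE, against 14.2% of those at or above it. In SKOV3/DDP the shares were 56.0% and 34.7%. The genes that rose in SKOV3 are those with GC contents of 37.5% to 44.3%, and the genes that fell have 48.2% to 63.4%, which the plot of fold change against GC content shows beside the quartiles of all genes. With the trend removed, 5 of the 9 were called higher and 3 lower in SKOV3, at a background of 50.3%, and 1 higher and 5 lower in SKOV3/DDP, at 32.7%.

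**Figure D3:**
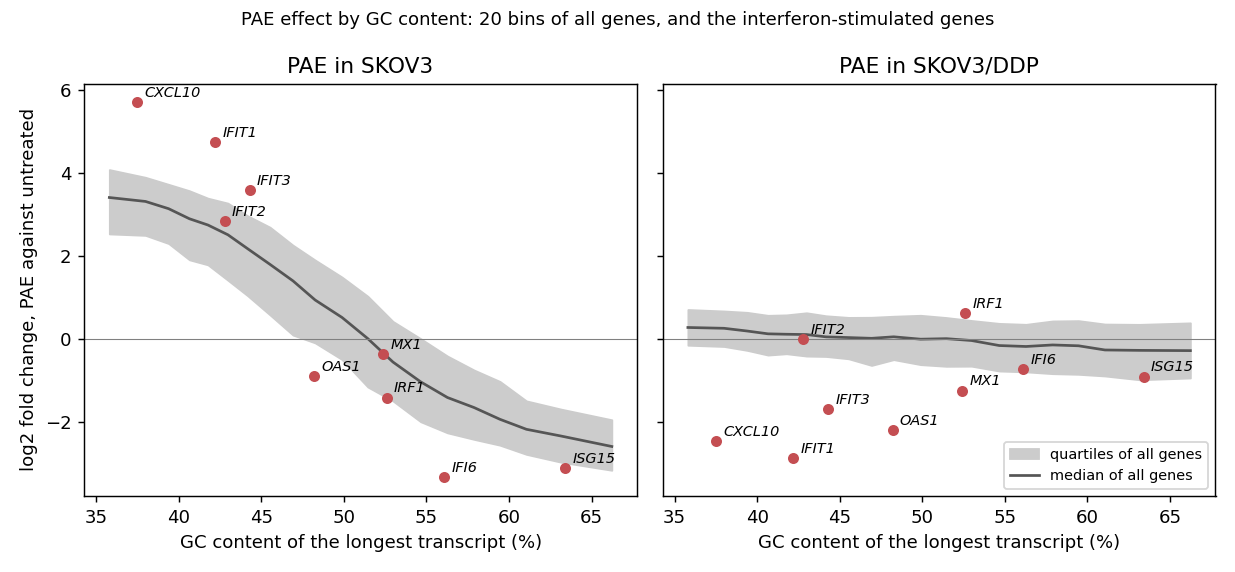
Log2 fold change after PAE against the GC content of the longest transcript, with the median and quartiles of all tested genes in 20 bins (line and band) and the 9 genes as points. In SKOV3 the median of all genes falls steeply with GC content, with IFIT1, IFIT3 and CXCL10 above the band and IFI6, OAS1 and, narrowly, ISG15 below it. In SKOV3/DDP the median stays near 0, with IRF1 above the band and IFIT1, IFIT3, MX1, OAS1 and CXCL10 below it.

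The response to PAE differed between the lines for 8 of the 9 genes in a test of the difference itself (interaction term of the same fit). The difference, taken as the log2 change in SKOV3/DDP minus that in SKOV3, was higher for 3 genes and lower for 5, at a background of 62.9% of all genes (25.5% higher and 37.4% lower). The calls over all genes were 4374 higher and 6404 lower, and 3088 and 7808 with scaling by library size. It reached −7.62 ± 0.46 for IFIT1 (adjusted p = 1.07e-07), −5.29 ± 0.50 for IFIT3 (6.13e-07) and −8.19 ± 1.19 for CXCL10 (2.68e-05), all of which rose in SKOV3, and the adjusted p of MX1 was 0.086. These 3 differences kept their sign and stayed under the threshold with the GC trend removed (−5.27, −3.83 and −6.41), as did IRF1 (2.04, then 1.69). The difference of ISG15 turned from 2.21 to −1.32, those of IFIT2, OAS1 and IFI6 no longer passed the threshold, and that of MX1 did (−1.05, adjusted p = 0.0485). All of these include the untreated SKOV3 libraries.

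Between the untreated lines, 1 of the 9 genes was higher in SKOV3/DDP (IFIT1, log2 3.40 ± 0.32, adjusted p = 1.33e-07) and 3 were lower (IRF1, IFIT2 and ISG15). Over all genes 81.8% were called, 45.8% higher and 36.0% lower. With scaling by library size these calls went from 7848 higher and 6162 lower to 9038 and 4948, and IFIT3 and IFI6 were also called higher (1.17 and 1.16). IRF1 was 8.79-fold lower in SKOV3/DDP, with a log2 difference of −3.14 ± 0.23, and of −2.76 with the GC trend removed. IFIT2 had a log2 difference of −1.85 ± 0.36, or −3.74 with the trend removed. ISG15 was at −2.26 ± 0.26 and turned to 1.34 with the trend removed, while IFIT1 remained higher at 1.09. IFIT3, MX1, OAS1, IFI6 and CXCL10 did not pass the threshold. With the trend removed 8 of the 9 genes were called, 3 higher and 5 lower, at a background of 70.0%, among them IFI6 at 3.01, OAS1 at −1.09 and IFIT3 at −0.89.

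The comparison of the lines after PAE uses no untreated SKOV3 library, and its estimates hardly moved when the GC trend was removed. In SKOV3/DDP_PAE 7 of the 9 genes were lower than in SKOV3_PAE and IFI6 was higher, at a background of 54.5% (27.5% higher and 27.1% lower). IFIT1 was 18.6-fold lower, IFIT2 25.9-fold and IFIT3 28.2-fold, with log2 differences of −4.22 ± 0.33, −4.69 ± 0.39 and −4.82 ± 0.39 (−4.18, −4.61 and −4.71 with the trend removed). CXCL10 had 1276 counts over the SKOV3_PAE libraries and 2 over the SKOV3/DDP_PAE libraries, which puts the ratio at 683 (95% counting interval 188.7 to 5645). IRF1, MX1 and OAS1 were lower with log2 differences of −1.10, −1.24 and −1.58. IFI6 was 8.40-fold higher (log2 3.07 ± 0.27, adjusted p = 2.34e-07), and the difference of ISG15 did not pass the threshold (log2 −0.05 ± 0.25, adjusted p = 0.88).

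The rank of the groups differed between genes. The ratio of the highest to the lowest group mean ran from 3.09 for MX1 to 28.2 for IFIT3, and it was 718 for CXCL10, whose lowest group had 2 counts in all. For MX1, OAS1 and IFI6 the first 3 groups in order of level overlapped with their neighbours, so that only the lowest group stood apart. Untreated SKOV3 and SKOV3/DDP overlapped for IFIT3, IFI6, MX1, OAS1 and CXCL10. These ranks, ratios and overlaps are on the TMM scale, and where they involve untreated SKOV3 they cannot be told apart from the GC trend. With the trend removed, the untreated lines differed by a called log2 of −0.89 for IFIT3, 3.01 for IFI6, −1.09 for OAS1 and −2.47 for CXCL10. MX1 was not called. Within untreated SKOV3/DDP, replicate 1 was the highest library for 7 of the 9 genes (all but IRF1 and MX1), and within SKOV3_PAE replicate 2 was highest for 7. Without SKOV3/DDP replicate 1, 4 of the 9 genes were called after PAE in SKOV3/DDP (IFIT1, IFIT3, MX1 and OAS1, all lower), and likewise 4 without SKOV3/DDP_PAE replicate 2. Calls over all genes fell as well without SKOV3/DDP replicate 1, to 2815 of 17893 tested, against 4526 of 17133 with all libraries. Leaving out any 1 library gave 2815 to 4998 such calls.

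Across the 12 libraries, the log2(CPM + 1) values of CXCL10, IFIT2 and IFIT3 moved closely together (Pearson r of 0.943 for CXCL10 with IFIT2, 0.949 for CXCL10 with IFIT3 and 0.906 for IFIT2 with IFIT3), OAS1 with MX1 (0.856), and CXCL10 opposite to IFI6 (−0.963). The libraries share groups of 3, so these are descriptions of 4 group patterns. The genes most like each member were RASIP1, CSRP1 and HCN2 for IRF1 (r of 0.991 to 0.995), EMP1, CENPI and ANK3 for IFIT1 (0.973 to 0.975) and MPDZ, CPS1 and ZNF329 for IFIT2 (0.989 to 0.991). For IFIT3 they were IL18R1, CALD1 and IL7R (0.984 to 0.988), for ISG15 MICOS13, PSMG3 and PUSL1 (0.989 to 0.991), and for IFI6 GPC1, KNDC1 and GDPD5 (0.982 to 0.987). CXCL10 was followed by ROS1, NEGR1 and CASC15 (0.992 to 0.994), MX1 by SERPINB6, STEAP3 and UCP2 (0.942 to 0.960) and OAS1 by LOC100507437, ACTG1 and SLC16A13 (0.948 to 0.964). The number of genes with r over 0.95 ran from 1 for MX1 to 498 for ISG15. The patterns of IRF1 (426 genes) and ISG15 are thus common on this scale and those of MX1 and OAS1 (2 genes) are not. All of these correlations use values that keep the GC trend of untreated SKOV3, and its part in them was not tested. GC content was 37.5% for CXCL10, 42.8% for IFIT2, 44.3% for IFIT3, 56.1% for IFI6 and 63.4% for ISG15.

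The wider interferon pathway was described with 126 further genes in lists by role, of which 100 passed the filter on low counts. After PAE in SKOV3/DDP, 28 of the 51 other interferon-stimulated genes tested were lower and 0 were higher, with a median log2 fold change of −1.03, against 14.7% lower and 11.8% higher over all genes. With the GC trend removed the list again gave 28 lower and 0 higher, with a median of −1.06. The largest falls at 1 CPM or more were those of MX2, a nuclear relative of MX1 (4.25 to 0.353 CPM, log2 −3.57 ± 0.50, adjusted p = 0.000267), and XAF1, a proapoptotic binding partner of the inhibitor XIAP (6.72 to 0.686 CPM, log2 −3.27 ± 0.56, adjusted p = 0.001). Among targets of interferon gamma 4 of 9 were lower and 0 higher, led by the GTPase gene GBP1 (log2 −3.39 ± 0.53) and the chemokine gene CXCL11 (−3.11 ± 0.65). Over all lists together 40 of the 100 genes were lower and 6 higher, and leaving out 1 library at a time gave 33 to 50 called genes. Of the 6 epithelial markers, KRT8, KRT18, KRT19 and CDH1 fell in the same comparison. Summed over the list, these markers lay between 10840 and 13097 CPM in the SKOV3/DDP libraries and between 2441 and 3467 CPM in the SKOV3/DDP_PAE libraries, and their part in the result was not tested.

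In SKOV3, 27 of the 51 other interferon-stimulated genes were higher after PAE (52.9%) and 17 lower (33.3%), with a median log2 fold change of 0.99, beside 42.6% higher, 32.7% lower and a median of 0.48 over all genes. With the GC trend removed 20 were higher and 10 lower (median 0.36), where 28.4% of all genes were higher and 22.0% lower. The summed epithelial markers lay between 4641 and 5250 CPM in the SKOV3 libraries and between 678 and 1353 CPM in the SKOV3_PAE libraries. Singly, KRT8, KRT18 and CLDN4 were called lower and KRT19 was not called. EPCAM and CDH1 were called higher (log2 2.32 ± 0.36 and 2.82 ± 0.50), and values with the trend removed are not given. The part of these markers in the result was not tested. Among the other interferon-stimulated genes, the largest called changes in each direction were those of 4 genes. TNFSF10, which encodes the death ligand TRAIL (0.461 to 22.8 CPM, log2 5.61 ± 0.56), and XAF1 (0.176 to 7.06 CPM, log2 5.29 ± 0.70) rose. LY6E (121 to 5.99 CPM, log2 −4.34 ± 0.81) and IFI35 (120.6 to 11.4 CPM, log2 −3.40 ± 0.23) fell. With the trend removed these were 3.20, 3.00, −1.60 (adjusted p = 0.0898) and −0.67. Of 9 gamma targets 6 were higher and 2 lower, and with the trend removed 3 and 1. CXCL11, which shares its receptor with CXCL10, went from 0.116 to 8.17 CPM (log2 6.06 ± 0.79, or 3.88 with the trend removed).

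Of the ligands, 3 of 21 interferon genes passed the filter, with group means of at most 3.67 CPM. For PAE in SKOV3, 1 of these 3 was called higher and 0 lower, and with the GC trend removed 2 and 0. IFNB1, encoding interferon beta, was at 2.31 CPM in SKOV3 and 2.41 in SKOV3_PAE (log2 0.06 ± 0.58, adjusted p = 0.94, or −0.96 with the trend removed, adjusted p = 0.178) and had 2 and 7 counts in all in the SKOV3/DDP groups. Its log2 difference between the untreated lines was −5.60 ± 0.90, or −6.38 with the trend removed. IFNL1, of the type III interferons, was at 3.67 CPM in SKOV3 and 2.45 in SKOV3_PAE (log2 −0.58 ± 0.47, adjusted p = 0.279), and with the trend removed the sign turned to a called rise of 2.25 (adjusted p = 0.00167). It had 0 counts in both SKOV3/DDP groups, which allows up to 0.0606 CPM without and 0.0501 CPM with PAE. IFNE, a type I interferon of the reproductive tract, went from 2 to 97 counts in SKOV3 (ratio 30.2, counting interval 8.14 to 253). The fitted log2 change was 4.75 ± 0.82 (adjusted p = 7.77e-05), or 2.70 with the trend removed (adjusted p = 0.0197). IFNE had 1 count in each SKOV3/DDP group. IFNG, encoding interferon gamma, had 0 counts in all 12 libraries.

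Receptor chains were present in all groups. IFNAR1 was at 37.0 CPM in SKOV3, 83.6 in SKOV3_PAE, 63.2 in SKOV3/DDP and 71.6 in SKOV3/DDP_PAE. In SKOV3 4 of the 6 chains were higher after PAE and IFNLR1 lower (log2 −0.79 ± 0.22). With the GC trend removed IFNAR1 turned from 1.18 to −1.42, IFNLR1 no longer passed the threshold (adjusted p = 0.994), and the list gave 2 higher and 2 lower. In SKOV3/DDP 1 of 6 changed, IFNGR2, a chain of the gamma receptor (19.1 to 7.19 CPM, log2 −1.41 ± 0.32, adjusted p = 0.00575).

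The JAK-STAT core followed no common direction. For PAE in SKOV3 3 of its 6 genes were higher and 1 lower, and with the trend removed 2 and 1. In SKOV3/DDP 2 were higher and 1 lower. STAT2 had group means between 50.8 and 65.0 CPM. Its log2 change was −0.21 ± 0.19 in SKOV3 (adjusted p = 0.336), which became −0.56 and a call with the trend removed (adjusted p = 0.0102), and −0.26 ± 0.19 in SKOV3/DDP (adjusted p = 0.348). In SKOV3/DDP the kinases JAK2 (19.3 to 39.7 CPM, log2 1.04 ± 0.31) and TYK2 (62.4 to 96.8 CPM, log2 0.63 ± 0.19) rose. In SKOV3 TYK2 fell by 2.19 ± 0.20 and JAK2 rose by 2.90 ± 0.36, but with the trend removed neither passed the threshold (adjusted p = 0.0821 and 0.612).

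Among the sensors and their kinases, DDX58, which encodes the RNA sensor RIG-I, was at 3.33 CPM in SKOV3, 93.8 in SKOV3_PAE, 72.6 in SKOV3/DDP and 22.2 in SKOV3/DDP_PAE. Its log2 change was 4.82 ± 0.36 in SKOV3 (2.13 with the trend removed) and −1.71 ± 0.31 in SKOV3/DDP. IFIH1, encoding the RNA sensor MDA5, rose by 3.67 ± 0.34 in SKOV3 (1.64 with the trend removed), and TLR3, an endosomal receptor of double-stranded RNA, fell by 1.80 ± 0.44 in SKOV3/DDP. CGAS, encoding the DNA sensor cGAS, had 595 counts over the SKOV3 libraries (17.1 CPM) and 2 over the SKOV3/DDP libraries, a 423-fold difference after correction for library size (116.6 to 3502). The fitted log2 difference was −8.48 ± 0.65, or −10.21 with the trend removed. Of the 11 sensors 6 were higher and 5 lower in SKOV3, and with the trend removed 4 and 1. In SKOV3/DDP 2 were higher and 3 lower, and the kinase gene TBK1 rose by 1.17 ± 0.18.

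Of the 6 other interferon regulatory factors tested, 2 were higher and 3 lower after PAE in SKOV3, and with the trend removed 0 and 3. IRF7, which amplifies type I interferon, went from 48.1 to 1.79 CPM (log2 −4.74 ± 0.36, or −2.38 with the trend removed), and IRF3 fell by 2.35 ± 0.25 (with the trend removed −0.21, adjusted p = 0.361). In SKOV3/DDP 0 were higher and 2 lower, and IRF3 fell by 1.08 ± 0.24. Among 8 inhibitors of the pathway 2 were higher and 5 lower in SKOV3, and with the trend removed 0 and 2. In SKOV3/DDP 2 were higher and 1 lower. There SOCS1, which blocks the kinases, rose from 2.87 to 10.8 CPM (log2 1.91 ± 0.54, adjusted p = 0.0171), and USP18, which removes ISG15 from its targets, fell by 0.85 ± 0.28 (adjusted p = 0.0359). These short lists stand beside 42.6% of all genes higher and 32.7% lower in SKOV3 (28.4% and 22.0% with the trend removed), and 11.8% and 14.7% in SKOV3/DDP. The plot of calls by list gives the counts for both lines.

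**Figure D4:**
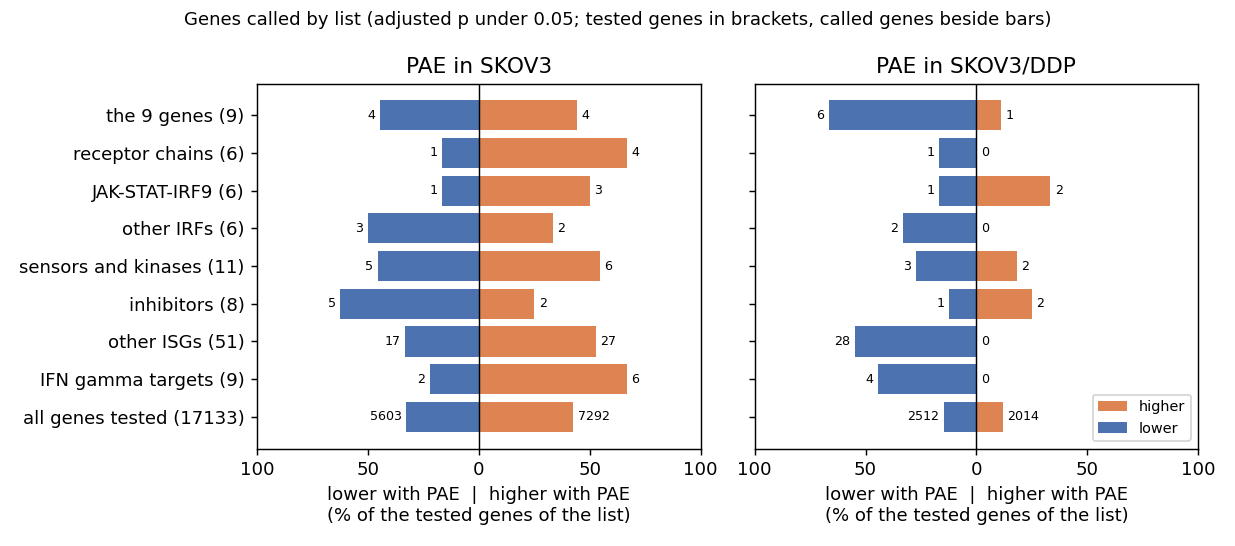
Share of the tested genes of each list called lower (left) or higher (right) after PAE, as percentages on a linear axis with the number called beside each bar and the number tested in brackets. In SKOV3/DDP the other interferon-stimulated genes show 28 lower and 0 higher, against 2512 and 2014 of all 17133 genes, while in SKOV3 most lists hold called genes on both sides.

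Between the untreated lines, 28 of the 51 other interferon-stimulated genes were higher in SKOV3/DDP (54.9%) and 18 lower (35.3%), beside 45.8% and 36.0% over all genes. With the GC trend removed 24 were higher and 19 lower, where 36.4% of all genes were higher and 33.7% lower. IFI27, a mitochondrial protein gene, went from 0.174 CPM in SKOV3 to 26.9 in SKOV3/DDP (log2 7.22 ± 1.17), and the helicase gene DDX60L from 2.88 to 155 (log2 5.75 ± 0.29). HERC5, the main ligase that attaches ISG15, was at 8.38 CPM in SKOV3 and 0.103 in SKOV3/DDP (log2 −6.27 ± 0.66), and OASL, a relative of OAS1 without its enzyme activity, at 1375 and 20.1 CPM (log2 −6.09 ± 0.34). After removal of the trend these 4 values were 7.93, 2.73, −8.04 and −5.39.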

How the data were processed

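The authors deposited whole-number read counts per gene, not normalized, for 12 libraries of poly-A RNA made with a NEBNext Ultra kit. The submitters' processing notes name HISAT2 2.0.5, StringTie 1.3.3b, DESeq2 and edgeR. The counting program and strand setting are not given in the sources used here. Of the 47219 loci listed, 869 had no gene name (0.126% to 0.678% of counts) and were left out. Counts were filtered with filterByExpr and scaled by TMM, and 17133 genes were tested in 1 fit of 4 groups (edgeR 4.0.16 in R 4.3.3, adjusted p under 0.05). Standard errors are the log2 fold change divided by the root of the F statistic. Alternatives were other scalings, filters, DESeq2 1.42.0, limma-voom 3.58.1, the replicate block, removal of a GC and length trend (GENCODE 29 transcripts), 6-library fits, the thresholds of the study's methods and leaving out each library. Replicates of a group differed beyond counting noise (chi-square per degree of freedom of 14.7 or more).

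The members and lists were chosen with earlier results of these data known. All 9 members are named. From each pathway list the text names up to 2 genes per direction with the largest called change at 1 CPM or more in the PAE comparisons and between the untreated lines, and any interferon, receptor or JAK-STAT gene, and for each member the 3 genes with the highest correlation. Some items that this rule names are not reported here.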

Additional observations from a re-analysis of the deposited data

Results flagged for a closer look

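The response to PAE differed between SKOV3/DDP and SKOV3 for 8 of the 9 genes by the interaction test in edgeR, which called 62.9% of all genes. As log2 change in SKOV3/DDP minus that in SKOV3, the difference was −7.62 for IFIT1, −5.29 for IFIT3, −8.19 for CXCL10, −2.84 for IFIT2 and −1.30 for OAS1, and it was 2.04 for IRF1, 2.21 for ISG15 and 2.62 for IFI6. IFIT1 and IFIT3 rose in all 3 SKOV3_PAE libraries above every untreated SKOV3 library and lay in all 3 SKOV3/DDP_PAE libraries below every untreated SKOV3/DDP library. After removal of the GC trend 1 of the 9 differences was called higher and 5 lower, at a background of 42.3% of all genes. The differences were then 0.30 for IFI6 (adjusted p = 0.484), −0.46 for OAS1 (adjusted p = 0.442), −0.86 for IFIT2 (adjusted p = 0.118) and −1.32 for ISG15, whose sign had turned. Without SKOV3_PAE replicate 2 the difference of OAS1 was −0.93 (adjusted p = 0.0613), and without SKOV3/DDP replicate 1 it was −0.94 (adjusted p = 0.0643).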

How the results depend on the processing

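With the GC and length trend removed, the sign of ISG15 turned in 4 comparisons (0.72 for PAE in SKOV3, 1.34 between the untreated lines, 0.0197 between the lines after PAE and −1.32 for the difference of the PAE effects), and IFIT3 turned to −0.89 between the untreated lines. The members called between the untreated lines went from 4 to 8, the pathway genes called for PAE in SKOV3 from 85 to 53, and all genes called from 12895 to 7596 for PAE in SKOV3 and from 10778 to 6379 for the difference, over fewer genes tested. Scaling by library size turned MX1 to 0.50 for PAE in SKOV3 and to 0.30 between the untreated lines, OAS1 to 0.43 between the untreated lines and IFIT2 to 0.14 for PAE in SKOV3/DDP, none of them called. IFIT2 in SKOV3/DDP was also at 0.0129 with limma-voom, 0.0141 without a filter and 0.0320 with the replicate block. DESeq2 called MX1 lower for PAE in SKOV3 (−0.63, adjusted p = 0.0404) and lower in SKOV3/DDP between the untreated lines (−0.62, adjusted p = 0.0398). The criteria of the study's methods, which ask for larger changes, gave 54 pathway genes for PAE in SKOV3. They gave 3 members, 16 pathway genes and 1218 of all genes for PAE in SKOV3/DDP, and 5, 41 and 4220 between the lines after PAE. With at least 10 counts in every library, fewer genes were tested and 8998 were called between the untreated lines and 5486 between the lines after PAE, and CXCL10 had no value.

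Leaving out 1 library at a time gave 4 to 8 members and 2815 to 4998 of all genes for PAE in SKOV3/DDP, with 4 members and 2815 genes without SKOV3/DDP replicate 1, 4 members without SKOV3/DDP_PAE replicate 2 and 2837 genes without SKOV3/DDP replicate 3. The sign turned within −0.20 to 0.38 for IFIT2 in SKOV3/DDP, −1.78 to 0.36 for CXCL10 between the untreated lines (without SKOV3 replicate 1) and −0.32 to 0.16 for ISG15 between the lines after PAE. Same-numbered replicates showed little common deviation (correlations of −0.171 to 0.117 over 18 pairs). Pairs with unlike numbers were not compared, so whether replicates of 1 number share a batch cannot be judged from these values. With the replicate block, 5 members were called in place of 7 for PAE in SKOV3/DDP, and 8, 4, 8 and 8 in the other comparisons. CXCL10 outside SKOV3_PAE rests on 2 to 15 counts per group, and depth limits what can be said of it.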
